A study of Caenorhabditis elegans with 12 samples.

Results

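The cuticle collagens described here are the *Caenorhabditis elegans* genes named *col* with a number, together with 12 collagens named for a mutant shape: *sqt-1*, *sqt-2*, *sqt-3*, *rol-6*, *lon-3*, *bli-1*, *bli-2*, *dpy-4*, *dpy-5*, *dpy-13*, *dpy-14* and *dpy-17*. The rule uses names and no measured value, and the 6 collagens of the annular furrows (*dpy-2*, *dpy-3*, *dpy-7*, *dpy-8*, *dpy-9* and *dpy-10*) are not among them. Of 168 such genes in the annotation, 104 are among the 12894 genes of the table analysed here, 94 with a *col* name and 10 named for a shape. The other 64 were not analysed here, among them *bli-1*, *sqt-2* and the dauer collagens *col-2* and *col-40*. Of the 104, 103 were tested among 12830 genes, and *col-53* was below the filter of at least 1 CPM in at least 3 libraries.

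Messenger RNA was sequenced from whole early adults of the wild-type strain N2 (Bristol). Embryos hatched in buffer without food, where larvae stop developing at the first stage (L1 arrest), and stayed there for 1 day in the control groups and for 8 days in the starved groups. Pools of 1000 animals were then fed at 20 °C on HT115 bacteria with an empty vector (EV) or with an RNAi vector against *daf-2*, the insulin/IGF receptor gene, and were frozen once eggs were seen. The 4 groups are therefore control EV, control labelled *daf-2* RNAi, starved EV and starved labelled *daf-2* RNAi, each with 3 libraries lettered A, B and C, and all 4 share the N2 background and the RNAi bacteria. Control animals had fed for about 52 hours and starved animals for about 68 hours, so the length of arrest and the length of feeding cannot be told apart. The comparisons address what a long arrest leaves in the young adult and how the *daf-2* RNAi label moves it.

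The cuticle is the extracellular coat of the worm, secreted by the hypodermis and rebuilt at each moult. Its collagens are made in waves, one set after another within each moulting cycle, and different sets are used in larvae, dauers and adults. Chains are hydroxylated and assembled into trimers in the secretory pathway, trimmed by proteases and then crosslinked in the matrix. In whole animals, fewer hypodermal cells and less collagen RNA per cell cannot be told apart, nor can a level at 1 moment be told from a shift in the timing of a wave.

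Depth over the listed genes ranged from 21150912 to 30037731 reads per library. Levels are given in CPM, reads of a gene divided by the authors' library size, scaled per 1e6 reads. *daf-2* RNA itself was at 188, 155 and 91.6 CPM in control EV, at 317, 202 and 118 CPM in control labelled *daf-2* RNAi, at 193, 153 and 102 CPM in starved EV and at 706, 289 and 111 CPM in starved labelled *daf-2* RNAi (libraries A, B and C). It was higher under the RNAi label in each same-lettered pair, so these libraries are named by their label throughout. Library A was mostly the highest in both starved groups. In starved EV it was the highest for 23 of the 26 collagens with a mean over all 12 libraries of 100 CPM or more. There it was the highest for 20 of the 30 at 5 to 100 CPM and for 41 of the 47 tested below 5 CPM. In starved labelled *daf-2* RNAi library A was the highest for 22, 22 and 37 of these. Library B of control labelled *daf-2* RNAi was the highest for 23 of the 26 and 22 of the 30. Below 5 CPM the highest library was over 3 times the second for 23 collagens in starved EV and 2 in starved labelled *daf-2* RNAi. Results that rest on starved EV A are also given without it. These level classes were set after the values had been seen. The library kit does not mark strand, so reads cannot be assigned where exons overlap, as they do with another gene for 25 of the 104 collagens.

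A few collagens made up most of the collagen RNA. Per kilobase of exon, mean levels over the 12 libraries were highest for *col-119* (2723 CPM per kilobase), followed by *col-20* (2408), *col-140* (2310), *col-122* (2017), *col-124* (1911), *col-181* (1725), *col-178* (1548), *col-19* (1488), *col-8* (1356) and *col-106* (1300 CPM per kilobase). Taken separately in each library, the 10 most abundant collagens by CPM held 63.0% to 70.9% of its collagen sum. At the other end, *sqt-1*, *rol-6* and *bli-2* stayed at or below 3.36 CPM in all libraries, and 56 collagens reached 1 CPM in all 12.

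Summed over the 104 genes, collagens took 3.07%, 3.65% and 3.29% of the listed signal in control EV libraries A, B and C, and 2.31%, 3.39% and 3.20% in control labelled *daf-2* RNAi. In starved EV they took 3.67%, 2.67% and 2.72%, and in starved labelled *daf-2* RNAi 2.11%, 1.78% and 1.68%. The 3 starved libraries labelled *daf-2* RNAi were thus the 3 lowest of the 12, while the other groups overlapped. Weakly expressed collagens took another course from control EV to starved EV. The 48 with a mean under 5 CPM summed to 60.5, 49.7 and 51.3 CPM in control EV and to 429, 133 and 92.6 CPM in starved EV. For the 30 at 5 to 100 CPM the sums were 381, 369 and 348 CPM in control EV and 1287, 807 and 846 CPM in starved EV, again without overlap. In starved labelled *daf-2* RNAi the 48 summed to 177, 111 and 48.4 CPM and the 30 to 592, 352 and 469 CPM. Both sets of sums were below starved EV in each same-lettered pair and overlapped control EV.

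**Figure D1:**
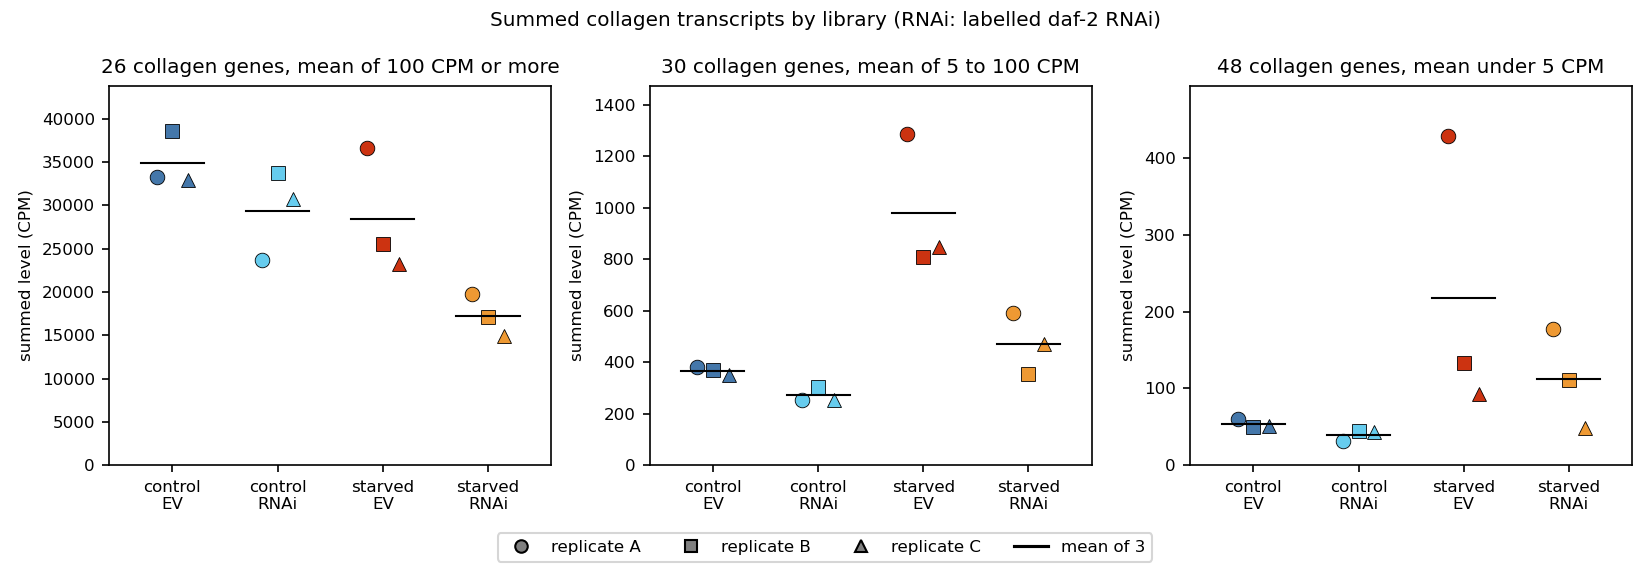
Summed level (CPM, linear axes from 0) of the collagens in each library, by mean level over the 12 libraries; symbols are the replicate letters A, B and C and the line is the mean of 3. For the abundant class the 3 starved libraries labelled *daf-2* RNAi (19804, 17126 and 14914 CPM) lie below the other 9, and for both weaker classes the starved EV libraries lie above the control EV libraries, with library A highest at 1287 and 429 CPM.

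After the long arrest on empty vector, 29 of the 30 collagens that rose had a mean under 100 CPM, and 4 of the 6 that fell were more abundant. Against control EV, 30 of the 103 tested collagens rose and 6 fell (limma, adjusted p under 0.05), where 11.5% of all tested genes were called higher and 6.12% lower. The median collagen change was 0.59 on the log2(CPM + 1) scale, against 0.03 over all tested genes. Without starved EV A the collagen median was 0.16, against 0.002 over all tested genes. Below 5 CPM 17 of 47 rose and 1 fell, where 20.1% of all genes of that level were called higher and 0.526% lower (medians 1.05 and 0.28). At 5 to 100 CPM 12 of 30 rose and 1 fell, against 9.98% and 7.53% of genes of that level (medians 0.64 and -0.02). At 100 CPM or more 1 of 26 rose and 4 fell, against 1.54% and 11.6% (medians -0.37 and -0.26).

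Of the 103 collagens, 16 passed the filter through starved EV only, all with a mean under 5 CPM, and 5 of the 30 called higher were among them. Over the other 87 the median change was 0.18, and of the 31 among these below 5 CPM 12 rose and 1 fell (median 1.05), where 544 of 3454 genes of that level chosen the same way rose (median 0.24). The count of rises was 19 without control EV C, and the count of falls was 1 without control EV B or without starved EV C, 3 without control EV C and 11 without starved EV A. Calls over all tested genes, either way, numbered 2266 with all libraries. They numbered 728 without control EV C, 897 without control EV B, 802 without starved EV C and 879 without starved EV A. Below 5 CPM the collagen rises numbered 8 without control EV C and 10 without control EV B. At 100 CPM or more the falls numbered 8 without starved EV A, and 1 when library B of control EV or library C of starved EV was left out. Without starved EV A the median was 0.40 below 5 CPM and -0.61 at 100 CPM or more, and the latter was -0.17 without starved EV C.

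**Figure D2:**
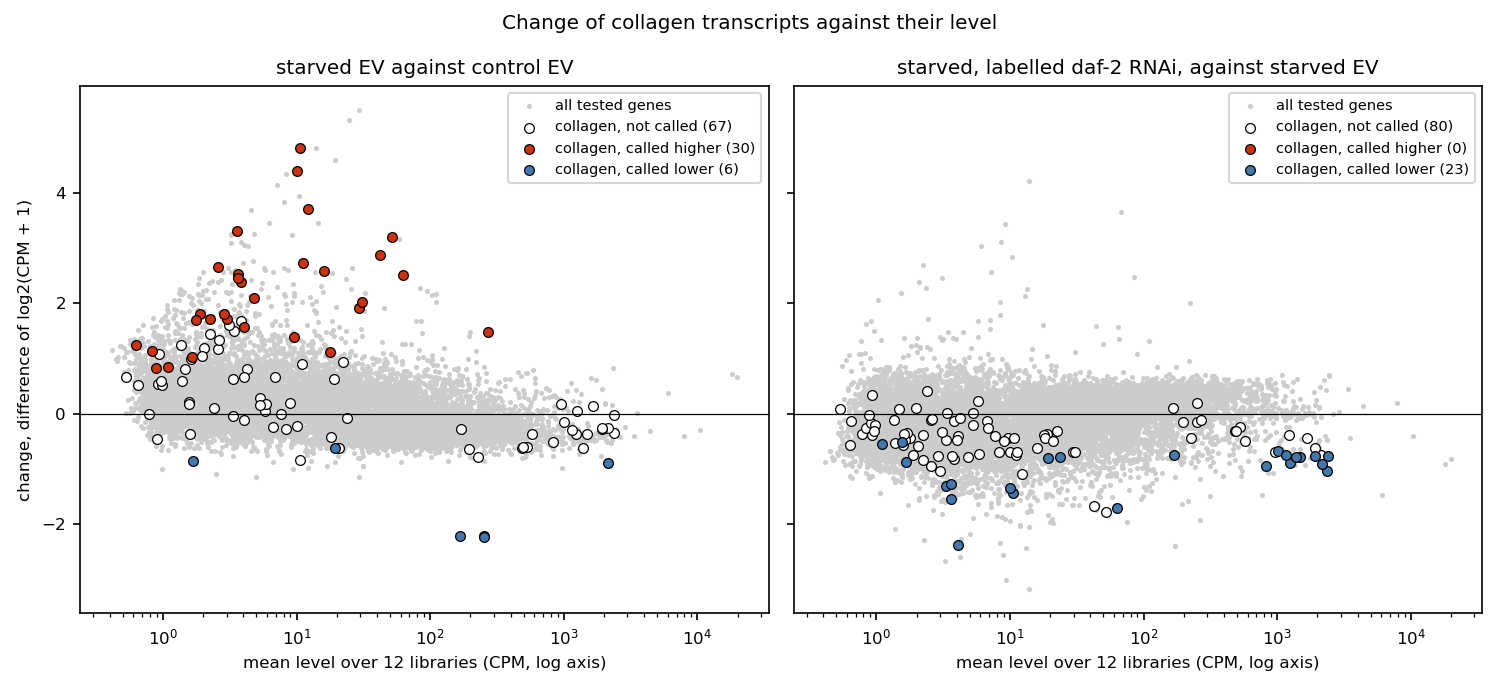
Change between groups (difference of log2(CPM + 1)) of every tested gene (grey) and the 103 tested collagens (circles) against mean level in CPM on a log axis, for starved EV against control EV (left) and starved labelled *daf-2* RNAi against starved EV (right); filled circles were called by limma. On the left 30 called rises lie mostly below 100 CPM, and on the right all 23 called collagens lie below 0, 11 of them at 100 CPM or more.

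Among the collagens named for a body shape, 4 rose. *sqt-3* (F23H12.4, chromosome V, 12352745 to 12354320 in the WBcel235 annotation), an essential collagen whose mutants are dumpy or squat rollers, was at 32.0, 5.05 and 15.9 CPM in control EV (A, B and C) and at 183, 112 and 125 CPM in starved EV. The starved libraries lay above every control library, and the change was 3.20 ± 0.62 (log2, SE; limma, adjusted p = 0.00628). Part of its exon sequence, 144 bases, is shared with the opposite-strand non-coding gene *F23H12.13*. *dpy-17*, a collagen trimmed by the same protease as SQT-3, went from 47.1, 12.1 and 32.3 to 151, 137 and 185 CPM, by 2.51 ± 0.51 (limma, adjusted p = 0.00807). *dpy-14* went from 32.7, 3.52 and 19.6 to 106, 93.1 and 124 CPM, by 2.88 ± 0.77 (limma, adjusted p = 0.0267), with no overlap of the groups. Its call was lost without library B or C of control EV or library A or C of starved EV, and the adjusted p reached 0.092. *lon-3*, which sets body length and lies downstream of TGF-beta signalling, was low throughout, at 0.297, 0.289 and 0.419 CPM in control EV and at 1.81, 1.88 and 0.632 CPM in starved EV. Its change of 0.83 ± 0.21 (limma, adjusted p = 0.0226) lost its call without library B or C of control EV or library A or B of starved EV.

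The other 6 shape collagens did not pass the test, and 3 of them were far higher in library A than in the other starved EV libraries. *dpy-5*, needed for normal body length, was at 1.04, 0.165 and 0.651 CPM in control EV and at 19.1, 2.71 and 0.186 CPM in starved EV. *dpy-4* was at 20.9, 2.00 and 0.483 CPM and *dpy-13* at 15.7, 2.04 and 0.260 CPM in starved EV libraries A, B and C, and neither exceeded 1.54 CPM in control EV. In the starved libraries labelled *daf-2* RNAi, *dpy-5* was at 9.44, 5.48 and 0.347 CPM, so libraries A and B were above all 6 controls there too. For these genes library C of starved EV was as low as the controls, so the groups overlapped. In all, 26 collagens were over 3 times higher in starved EV A than in both B and C, and 23 of these had a mean under 5 CPM. The roller collagens *rol-6* and *sqt-1* and the strut collagen *bli-2* were at 0.902 ± 0.85, 1.26 ± 1.2 and 1.09 ± 0.70 CPM in starved EV (SD, n = 3), and for each of them the starved EV and control EV libraries overlapped and the limma test was not passed.

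The largest rises among all collagens were in genes almost silent in the controls. *col-165* (F14H12.1, chromosome X, 4353618 to 4354852) was at 0.248, 0.0414 and 0.093 CPM in control EV and at 39.2, 25.9 and 28.5 CPM in starved EV, a change of 4.82 ± 0.21 (limma, adjusted p = 1.3e-07). *col-74* (ZK1248.2, chromosome II, 5830374 to 5832022) went from 0.495, 0.331 and 0.279 to 39.0, 21.8 and 25.5 CPM, by 4.40 ± 0.23 (limma, adjusted p = 4.67e-07). It shares 144 exon bases with *gtap-1* on the opposite strand. *col-65* (K08C9.4) went from 0.0991, 0.207 and 0.0465 to 15.6, 7.30 and 8.70 CPM, by 3.30 ± 0.23 (limma, adjusted p = 4.43e-06). In these 3 genes all starved EV libraries stood above the other 9 libraries, with library A the highest, and each call held without any single library.

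Over all tested collagens, 12 had all 3 starved EV libraries above the other 9, and 11.9% of all tested genes did. *col-107* (C34H4.4) showed more scatter, with 71.4, 17.5 and 12.8 CPM in starved EV against 1.34, 0.786 and 0.977 CPM in control EV (3.71 ± 0.53; limma, adjusted p = 0.000972). The adjacent pair *col-117* and *col-3* rose by 2.74 ± 0.46 and 2.58 ± 0.44 (limma, adjusted p = 0.00246 and 0.00277), each over 3 times higher in library A than in B or C. *col-109* rose by 2.65 ± 0.40 (limma, adjusted p = 0.00129) from at most 0.149 CPM in control EV to 14.6, 3.88 and 3.46 CPM. *col-121*, which shares 107 exon bases with *daf-15* on the opposite strand, had the least scatter within starved EV of these, with 9.89, 8.36 and 11.4 CPM against 2.18, 0 and 1.07 CPM (2.53 ± 0.36; limma, adjusted p = 0.000947).

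Among collagens of 100 CPM or more, *col-95* was the single rise. It lay at 170, 112 and 125 CPM in control EV and at 556, 300 and 314 CPM in starved EV, a change of 1.48 ± 0.29 (limma, adjusted p = 0.0063). All 3 starved EV libraries were above all 6 control libraries.

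Falls were led by 3 collagens that behaved alike. *col-129* (M18.1) was at 347, 717 and 380 CPM in control EV and at 115, 119 and 65.4 CPM in starved EV (-2.23 ± 0.50; limma, adjusted p = 0.013). *col-139* went from 296, 707 and 372 to 104, 111 and 64.5 CPM (-2.22 ± 0.47; limma, adjusted p = 0.0101). *col-81* went from 202, 463 and 238 to 64.6, 78.8 and 42.4 CPM (-2.21 ± 0.52; limma, adjusted p = 0.0164). Every starved EV library was below every control library for these genes. The calls of *col-129* and *col-81* were lost without control EV B or without starved EV C, and that of *col-139* held without each library in turn.

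Control library B was the highest of its group for these 3 genes and the lowest for *sqt-3*, *dpy-17* and *dpy-14*, under either food. In control labelled *daf-2* RNAi, *col-129* was at 166, 596 and 220 CPM and *dpy-17* at 27.9, 5.15 and 18 CPM (A, B and C). The 6 furrow collagens, summed, were also lowest in B, at 27.45, 11.2 and 21.2 CPM in control EV and 19.4, 8.58 and 14.5 CPM in control labelled *daf-2* RNAi. The part of this difference between control libraries in the changes after long arrest was not tested beyond the values without each library.

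Smaller falls were called in *col-124* (-0.89 ± 0.26; limma, adjusted p = 0.038), among the most abundant collagens at 2753, 3828 and 3122 CPM in control EV and 2127, 1741 and 1399 CPM in starved EV, in *col-141* (-0.85 ± 0.22; limma, adjusted p = 0.0222) and in *col-135* (-0.62 ± 0.19; limma, adjusted p = 0.0447). The call of *col-124*, which shares 71 exon bases with *qns-1*, was lost without control EV B, control EV C, control labelled *daf-2* RNAi C, starved EV B or starved EV C. That of *col-141* was lost without library B or C of control EV or library A or C of starved EV. For *col-135* the call held without starved EV A and was lost without any other single library.

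**Figure D3:**
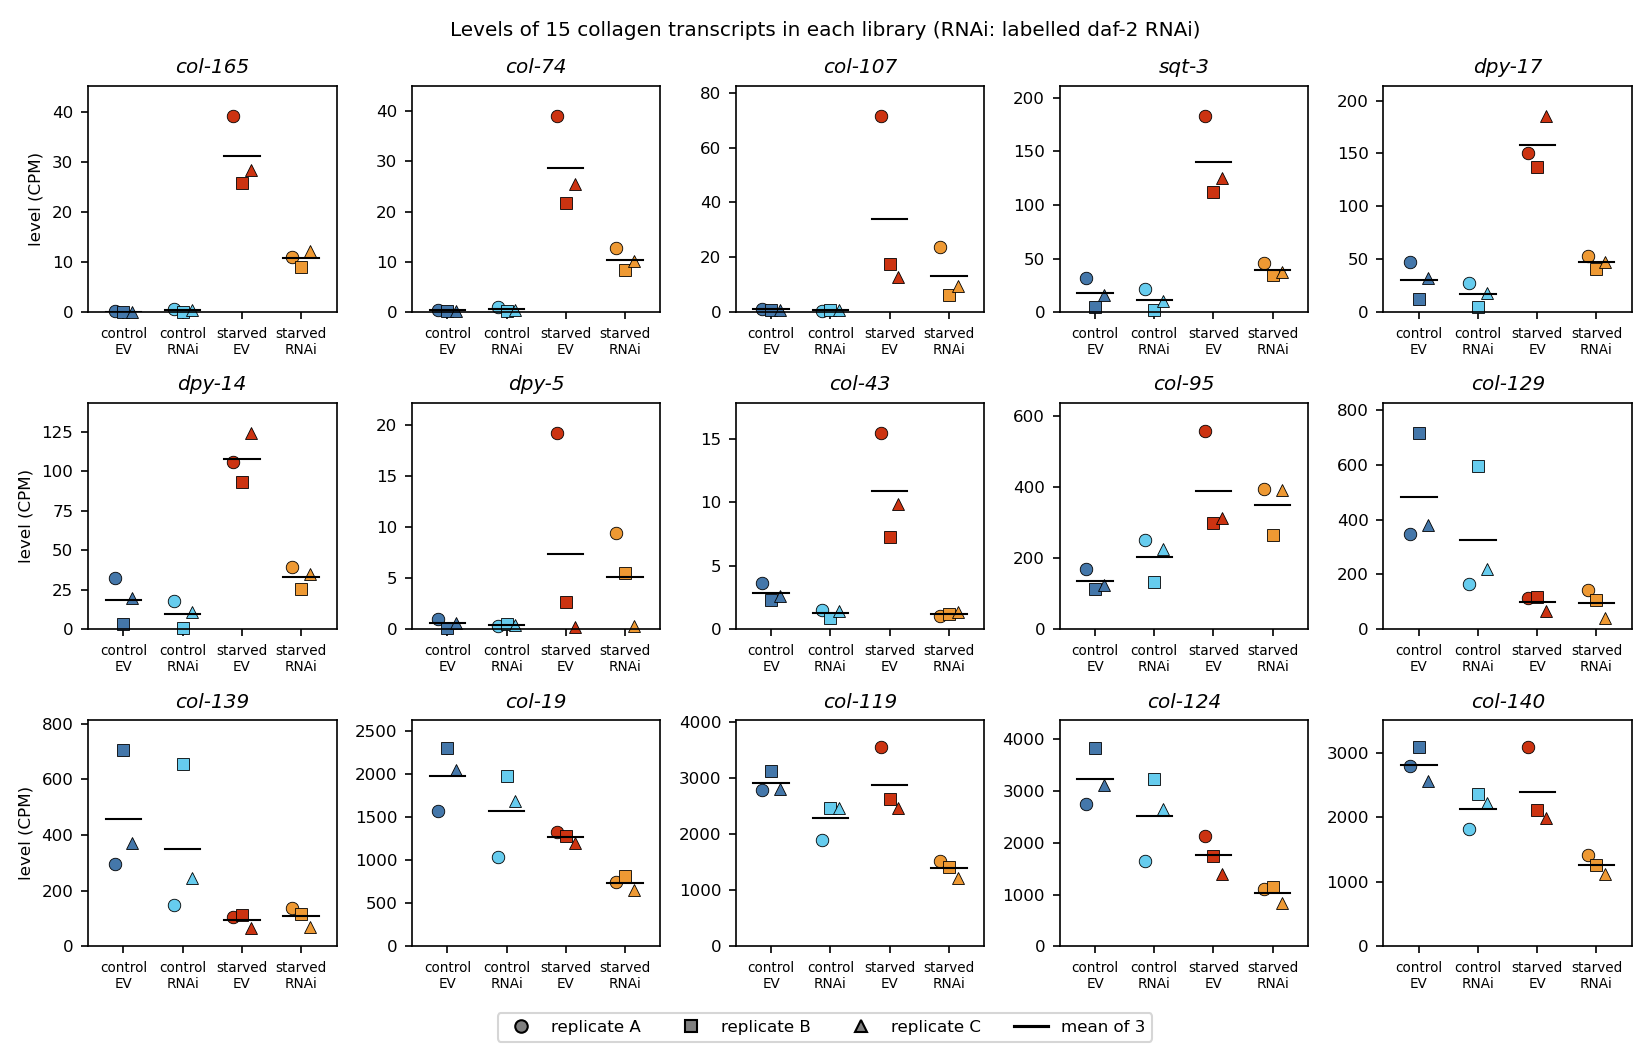
Level (CPM, linear axes from 0) of 15 collagens in each library; symbols are the replicate letters and the line is the mean of 3. *col-165* and *col-74* are near 0 in both control groups and high in starved EV, *dpy-5* is highest in starved EV A (19.1 CPM), *col-129* and *col-139* are highest in control libraries B, and *col-19*, *col-119*, *col-124* and *col-140* are lowest in the starved libraries labelled *daf-2* RNAi.

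Within the starved animals, the *daf-2* RNAi label went with lower median levels of the abundant collagens and of those at 5 to 100 CPM. The share called lower was above that of other genes of their level for the abundant collagens and near it for weaker ones. Of the 103 collagens 23 fell and 0 rose against starved EV (limma, adjusted p under 0.05), where 11.9% of all tested genes were called lower and 3.8% higher. No collagen was called higher by edgeR or DESeq2 either. An unadjusted p under 0.05 in limma was reached by 36 collagens, 23 of them called, and by 4641 of the 12830 tested genes. The median change was -0.49 against 0.00 over all tested genes. Without starved EV A it was -0.20, and without starved EV C it was -0.82. Among the 26 abundant collagens 11 fell, where 4.4% of all genes of that level were called lower (medians -0.64 and 0.23). At 5 to 100 CPM 5 of 30 fell, against 13% (medians -0.66 and 0.05), and below 5 CPM 7 of 47 fell, against 14.8% (medians -0.40 and -0.26). With the replicate block, since the letters pair these libraries, 39 collagens fell and 0 rose (24.3% of all tested genes called lower). Without the block, 2017 of all tested genes were called either way with all libraries. That number was 801 without starved EV A, 798 without starved *daf-2* RNAi B, 1906 without starved *daf-2* RNAi C and 1513 without control *daf-2* RNAi C. The count of collagen falls in these runs was 7 without starved EV A, 8 without starved *daf-2* RNAi B, 12 without starved *daf-2* RNAi C and 15 without control *daf-2* RNAi C. For the abundant class it was 2 without starved EV A, 3 without starved *daf-2* RNAi B, 4 without starved *daf-2* RNAi C, 6 without control *daf-2* RNAi C and 7 without control EV B or C. At 5 to 100 CPM it was 2 without starved EV A or starved *daf-2* RNAi B and 3 without starved *daf-2* RNAi A. Below 5 CPM it was 3 without starved EV A or starved *daf-2* RNAi B and 4 without library C of either starved group. Without starved EV A the class medians were -0.40, -0.26 and -0.002 from the most to the least abundant, against 0.22, 0.01 and -0.18 for all genes of those levels. Counted by same-lettered pairs, 63 collagens were lower under the label in all 3 pairs, against 39.2% of all tested genes.

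The most abundant collagens were among those that fell. *col-119* (C53B4.5, chromosome IV, 8978926 to 8979795), the most abundant per kilobase, was at 3560, 2626 and 2474 CPM in starved EV and at 1533, 1421 and 1223 CPM in starved labelled *daf-2* RNAi (-1.04 ± 0.20; limma, adjusted p = 0.0064). *col-140* went from 3092, 2121 and 1990 to 1411, 1259 and 1114 CPM (-0.91 ± 0.21; limma, adjusted p = 0.0148). *col-179* went from 1002, 775 and 701 to 512, 444 and 327 CPM (-0.95 ± 0.22; limma, adjusted p = 0.0144). The groups did not overlap for any of the 3. *col-119* and *col-8* (-0.89 ± 0.19; limma, adjusted p = 0.0108) were called without each library in turn. *col-179* was lost without starved EV A, and *col-140* without starved EV A or starved *daf-2* RNAi B. *col-20*, *col-122*, *col-178* and *col-106* also fell, with changes of -0.77, -0.76, -0.79 and -0.74 (limma, adjusted p = 0.0239, 0.033, 0.0389 and 0.049997). All 4 calls were lost without starved EV A or without library B or C of the labelled starved group, that of *col-122* also without starved *daf-2* RNAi A, and those of *col-178* and *col-106* also without several control or starved EV libraries. *col-181* and *col-124*, at -0.62 and -0.75, did not pass (limma, adjusted p = 0.0636 and 0.0668) and passed with the replicate block (0.0144 and 0.0128).

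Seen over all groups, the 3 starved libraries labelled *daf-2* RNAi were below all 9 others for 13 of the 26 abundant collagens, where 0.954% of all genes of that level had this order. These 13 are *col-8*, *col-19*, *col-20*, *col-93*, *col-106*, *col-119*, *col-122*, *col-124*, *col-140*, *col-178*, *col-179*, *col-181* and *col-184*, which take in the 10 highest per kilobase.

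*col-19* (ZK1193.1, chromosome X, 421707 to 422691), an adult collagen switched on at the last moult by the transcription factor LIN-29, was at 1574, 2304 and 2046 CPM in control EV and at 1038, 1970 and 1690 CPM in control labelled *daf-2* RNAi. It was at 1323, 1276 and 1204 CPM in starved EV and at 742, 817 and 655 CPM in starved labelled *daf-2* RNAi. The last 3 values are the lowest of the 12, and the change within starved animals was -0.78 ± 0.23 (limma, adjusted p = 0.0387; 0.00356 with the replicate block). That call was lost without control EV C, control *daf-2* RNAi C or any of the 6 starved libraries. *col-7*, another adult collagen, lay between 2.14 and 10.0 CPM in all libraries, with overlapping groups and a change of 0.01 in the same comparison (limma, not called).

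Of the 30 collagens called higher in starved EV against control EV, 8 were called lower under the label, as were 655 of the 1481 genes called higher in all. Both comparisons use the starved EV libraries, so a gene chosen for high values there is favoured to be lower here, and nothing is read from these counts. *col-165* was at 11, 9.04 and 12.2 CPM in starved labelled *daf-2* RNAi (-1.44 ± 0.21 against starved EV; limma, adjusted p = 0.0015), *col-74* at 12.8, 8.38 and 10.2 CPM (-1.35 ± 0.23; limma, adjusted p = 0.00385) and *col-65* at 4.32, 3.07 and 3.43 CPM (-1.27 ± 0.23; limma, adjusted p = 0.00501). For all 3 the starved labelled *daf-2* RNAi libraries lay above all 6 control libraries and below all 3 starved EV libraries. *dpy-17* was at 53, 41 and 47.9 CPM (-1.71 ± 0.51; limma, adjusted p = 0.0411; 0.00199 with the replicate block), a call that held without control EV A, control EV B, control *daf-2* RNAi A or control *daf-2* RNAi B and was lost without any other library. *sqt-3* at 45.5, 34.6 and 38 CPM (-1.78 ± 0.62) and *dpy-14* at 39.2, 25.4 and 35.3 CPM (-1.68 ± 0.77) were below all starved EV libraries but did not pass (limma, adjusted p = 0.066 and 0.138) and passed with the replicate block (0.00283 and 0.015).

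*col-43* had the largest called fall. It rose from 3.62, 2.32 and 2.65 CPM in control EV to 15.5, 7.30 and 9.89 CPM in starved EV (1.58 ± 0.23; limma, adjusted p = 0.00111). In starved labelled *daf-2* RNAi it was at 1.07, 1.20 and 1.35 CPM (-2.37 ± 0.23 against starved EV; limma, adjusted p = 0.000141), below every control EV library and within the range of control labelled *daf-2* RNAi (1.49, 0.929 and 1.48 CPM). *col-121* fell to 3.11, 2.20 and 2.87 CPM (-1.55 ± 0.36; limma, adjusted p = 0.0169), a call lost without library C of starved EV or library B of the labelled starved group and not made by edgeR (adjusted p = 0.0942). *col-99*, a transmembrane collagen with a role in axon guidance, fell from 8.39, 5.02 and 4.72 to 1.76, 2.65 and 1.13 CPM (-1.30 ± 0.32; limma, adjusted p = 0.02), a call lost without starved EV A or starved *daf-2* RNAi C. It shares 108 exon bases with *daf-1* on the opposite strand. *col-95*, the abundant collagen that was high in starved EV, stayed at 393, 265 and 392 CPM and overlapped starved EV (change -0.12).

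**Figure D4:**
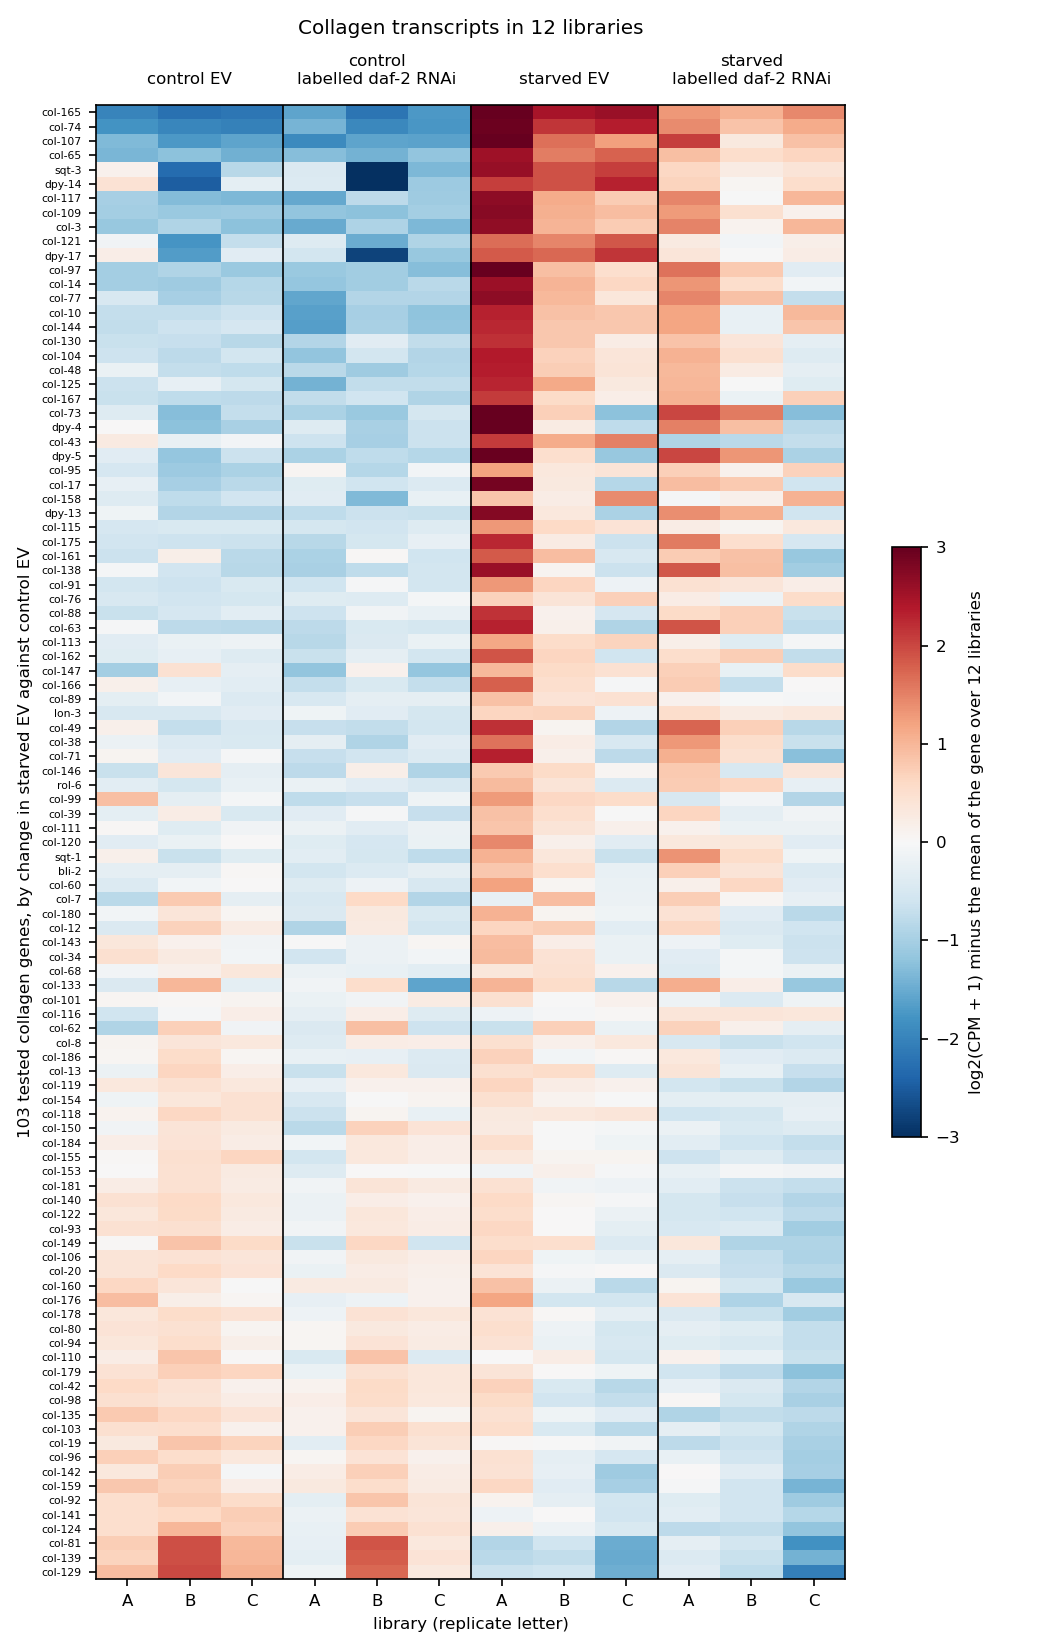
Each of the 103 tested collagens (rows, ordered by change in starved EV against control EV) in the 12 libraries (columns, by group and replicate letter), coloured by log2(CPM + 1) minus the gene's mean over the 12 libraries. Rows at the top, such as *col-165* (4.82), are dark red in starved EV, most strongly in library A, and rows near the bottom are blue in the starved libraries labelled *daf-2* RNAi.

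After the short arrest the RNAi label changed no collagen past the threshold. Of 103 collagens 0 were called against control EV by limma or by edgeR, 2 were called by DESeq2 and 6 had an unadjusted p under 0.05 in limma. Of all 12830 tested genes 1.39% were called by limma, 196 by edgeR and 383 by DESeq2, and 1193 had an unadjusted p under 0.05 in limma. The median change was -0.22 against -0.01 over all tested genes, and 48 collagens were lower in all 3 same-lettered pairs, against 25.4% of all tested genes. With the replicate block 3 were called, against 5.81% of all tested genes: *col-118* at -0.65 (limma, adjusted p = 0.0148), *col-43* at -0.75 (0.0386) and *col-95* at 0.55 (0.0369). *col-118* was at 24.6, 35.3 and 31.9 CPM in control EV and at 14.2, 24.3 and 19.4 CPM in control labelled *daf-2* RNAi.

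Whether the label acted differently after long and short arrest was tested as an interaction, and 0 collagens passed in limma (0.0% of all tested genes) or edgeR, 1 passed in DESeq2 and 8 had an unadjusted p under 0.05 in limma. Over all 12830 tested genes 4 passed in DESeq2 and 912 had an unadjusted p under 0.05 in limma. With the replicate block, which 0.491% of all tested genes passed, *col-165* (-1.72), *col-74* (-1.59) and *col-43* (-1.63) were called (limma, adjusted p = 0.0136, 0.0151 and 0.0345). Both control groups were below 1 CPM for *col-165* and *col-74*. edgeR with the block called 1 collagen, among 4 of all tested genes.

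Under the RNAi label, long against short arrest was compared as well: 5 collagens rose and 2 fell (limma), where 0.663% of all tested genes were called higher and 0.039% lower. An unadjusted p under 0.05 was reached by 61 of the 103 collagens and 1296 of all tested genes, against 43 and 4812 in starved EV against control EV. The rises were *col-165* (3.09 ± 0.21; adjusted p = 2.8e-05), *col-74* (2.82 ± 0.23; 9.62e-05), *col-107* (2.78 ± 0.53; 0.0358), *col-3* (2.12 ± 0.44; 0.0496) and *col-65* (1.97 ± 0.23; 0.00144), all by limma. The falls were *col-179* (-1.07 ± 0.22; limma, adjusted p = 0.046) and *col-135* (-1.0 ± 0.19; limma, adjusted p = 0.0371). *col-165*, *col-74* and *col-65* were called without each library in turn, and the other 4 were each lost without most single libraries. The count was 17 without starved EV A, 4 without control EV A and 3 without any of control EV B, control EV C, control *daf-2* RNAi B, control *daf-2* RNAi C, starved EV B, starved *daf-2* RNAi A or starved *daf-2* RNAi C. Over all tested genes 90 were called with all libraries, 136 without starved EV A, 68 without control EV A and 28 to 75 in the other runs named. Although 1 of the 26 abundant collagens was called, 23 of them had all 3 starved libraries below all 3 controls, and 10.1% of all genes of that level had this order.

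The starved animals labelled *daf-2* RNAi were also set against control EV, which shares its libraries with comparisons above. Here 10 collagens rose and 23 fell (limma), where 3.17% of all tested genes were called higher and 2.6% lower. Of the 26 abundant collagens 1 rose and 16 fell, with a median of -1.03, while 3.11% of genes of that level were called lower and their median was -0.03. The largest falls were *col-129* (-2.37 ± 0.50), *col-81* (-2.11 ± 0.52), *col-139* (-2.04 ± 0.47), *col-124* (-1.64 ± 0.26) and *col-179* (-1.47 ± 0.22), with limma adjusted p from 0.00131 to 0.0321. *col-19* changed by -1.41 ± 0.23 (limma, adjusted p = 0.00268). Rises were led by *col-165* (3.38 ± 0.21), *col-74* (3.05 ± 0.23), *col-107* (2.61 ± 0.53), *col-117* (2.04 ± 0.46) and *col-65* (2.04 ± 0.23), with limma adjusted p from 2.43e-06 to 0.0187. *col-165*, *col-74*, *col-65*, *col-124*, *col-179* and *col-19* were called without each library in turn. The calls of *col-107*, *col-117*, *col-129*, *col-81* and *col-139* were lost without control EV B, those of *col-129*, *col-81*, *col-139* and *col-117* also without starved *daf-2* RNAi C, those of *col-81*, *col-139* and *col-117* also without control EV C, and that of *col-117* also without starved *daf-2* RNAi A. The count of calls was 11 without control EV B, 16 without starved *daf-2* RNAi C and 17 without control EV C. Over all tested genes it was 741 with all libraries and 389, 460 and 451 in those runs, in that order.

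Chromosome IV holds 30 of the 104 collagens, V holds 25, II holds 15, III and X hold 12 each and I holds 10, and 18 neighbouring pairs lie within 20000 bases of each other. In starved EV against control EV both neighbours rose in *col-117* and *col-3* on chromosome IV (2.74 and 2.58) and in *col-144* and *col-10* on V (1.91 and 2.02), while *col-95* rose and *col-96* beside it on III was not called (1.48 and -0.63). Neighbouring pairs were not compared with other pairs. On II, *col-20*, at 3030, 2236 and 2303 CPM in starved EV, lies between *col-17* and *col-73*, which were at 15.2, 1.73 and 0.223 CPM and at 23.1, 3.30 and 0.112 CPM. Reads of *col-159* and *col-160*, which share 21 exon bases on the same strand, cannot be fully assigned.

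The furrow collagens, which are made earlier in the moulting cycle than many others, were set beside these values. Of all tested genes 11.5% were called higher in starved EV against control EV, and 11.9% lower under the label within starved animals. Of 6, 4 rose in starved EV against control EV, *dpy-7* (2.64 ± 0.51), *dpy-2* (2.26 ± 0.36), *dpy-3* (2.03 ± 0.43) and *dpy-10* (1.84 ± 0.26; limma, adjusted p from 0.000914 to 0.0104), and each call held without any single library. Under the label within starved animals *dpy-2*, *dpy-3* and *dpy-10* fell (limma), and all 3 calls were lost without library C of starved EV or library B of the labelled starved group. Their sums were 80.05, 71 and 85.2 CPM in starved EV libraries A, B and C, so library A did not stand out there as it did for *dpy-4*, *dpy-5* and *dpy-13*.

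Enzymes that modify and fold collagen chains act before secretion. For this list, 11.5% of all tested genes called higher in starved EV (median 0.03) and 11.9% called lower under the label (median 0.00) are the shares to set beside the counts. Of 13 tested genes for hydroxylation, folding and secretion 2 rose in starved EV (median 0.02), the prolyl 4-hydroxylase genes *phy-2* (0.55 ± 0.15) and *dpy-18* (0.52 ± 0.17; limma, adjusted p = 0.0286 and 0.0497), and both calls were lost without library B or C of control EV or library A or C of starved EV. Under the label within starved animals 4 fell (median -0.18). *phy-2* (-0.98 ± 0.15) and the lysyl hydroxylase gene *let-268* (-0.86 ± 0.16) were called without each library in turn (limma, adjusted p = 0.00224 and 0.00612). *dpy-18* (-0.60 ± 0.17) and the disulfide isomerase gene *pdi-6* (-0.46 ± 0.12; limma, adjusted p = 0.033 and 0.0296) were lost without library C of starved EV or library B of the labelled starved group, among others.

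Of 18 tested genes for collagen processing, crosslinking and the apical matrix 8 rose and 0 fell in starved EV (median 0.53), and 8 fell and 0 rose under the label (median -0.63; limma). Here and for the lists that follow in this paragraph, the shares of all tested genes were 11.5% higher in starved EV and 11.9% lower under the label. The peroxidase gene *skpo-2* rose by 1.73 ± 0.23 (limma, adjusted p = 0.000652), a call that held without each library in turn. The protease inhibitor gene *mlt-11* (2.43 ± 0.66), the matrix genes *noah-2* (2.18 ± 0.50) and *noah-1* (1.92 ± 0.57) and the dual oxidase gene *bli-3* (0.57 ± 0.16) also rose (limma, adjusted p from 0.0146 to 0.0396), and all 4 calls were lost without library B of control EV or library C of starved EV. Of 25 regulators of cuticle genes 7 rose in starved EV and 8 fell under the label (medians 0.40 and -0.42). The nuclear receptor gene *nhr-25* (1.28 ± 0.28), the zinc finger genes *bed-3* (1.13 ± 0.22) and *blmp-1* (1.1 ± 0.23) and the GATA factor gene *elt-6* (0.96 ± 0.18) rose without loss of the call in any leave-out (limma, adjusted p from 0.00541 to 0.0103). Of a list of 5 other collagen and matrix genes (*emb-9*, *let-2*, *cle-1*, *mec-5* and *unc-71*) 0 were called in starved EV by limma, with 0 at an unadjusted p under 0.05, and *mec-5*, the collagen of touch neurons, fell under the label (-0.75 ± 0.20; limma, adjusted p = 0.0277), a call lost without starved EV A or without library B or C of the labelled starved group.

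Markers of moulting, stage and tissue were measured in the same comparisons, and the lists share some genes. For these and the tissue lists below, 11.5% of all tested genes were called higher and 6.12% lower in starved EV. Under the label 3.8% were called higher and 11.9% lower. Of 24 moulting genes 12 rose in starved EV (median 0.94) and 10 fell under the label (median -0.74; limma). Their sum ranged from 894 to 1196 CPM in control EV, from 966 to 1114 CPM in control labelled *daf-2* RNAi, from 1238 to 1614 CPM in starved EV and from 952 to 1186 CPM in starved labelled *daf-2* RNAi. Of 13 germline genes 3 fell in starved EV and 5 rose under the label, with sums of 6990 to 9675 CPM, 8465 to 11744 CPM, 4841 to 7448 CPM and 8521 to 10638 CPM in the same order of groups. The 6 yolk protein genes, which mark adult hermaphrodites, summed to at least 23999 CPM in every library. Their sums were 23999 to 87083 CPM, 27652 to 50986 CPM, 41100 to 118650 CPM and 27666 to 50964 CPM in the same order of groups. Library A was the highest in each group. Of these genes 0 were called in starved EV (median 0.65) and 1 fell under the label (median -0.92).

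Of 11 hypodermis genes, 2 of them collagens of the group described, 7 rose in starved EV and 5 fell under the label. Without those 2, *col-19* and *rol-6*, 7 of 9 rose and 4 fell, and the sums were 124 to 178 CPM in control EV, 123 to 161 CPM in control labelled *daf-2* RNAi, 283 to 412 CPM in starved EV and 176 to 218 CPM in starved labelled *daf-2* RNAi. Of 6 seam cell genes 2 rose in starved EV, where the median was -0.14, and 2 fell under the label (median -0.43). Seam sums were 137 to 197 CPM in control EV and 118 to 167 CPM in starved EV, with overlap. Of 10 pharynx genes 5 rose and 5 fell in those comparisons, with sums of 68.7 to 255 CPM, 49.2 to 95.1 CPM, 153 to 621 CPM and 79.0 to 365 CPM in the same order of groups. Of 8 intestine genes 3 rose in starved EV, and 1 rose and 2 fell under the label. Of 5 embryo genes 0 were called in starved EV, and 1 rose and 1 fell under the label. None of the 9 body muscle or 11 sperm genes was called by limma in these comparisons, with 0 and 1 of each at an unadjusted p under 0.05. The part of developmental stage, moulting phase or tissue make-up in the collagen changes was not tested.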

How the data were processed

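The deposited table holds CPM for 12 libraries, with 3 in each of the 4 groups. Per the labels' protocols, libraries came from 500 ng of RNA with the NEBNext Ultra kit, which does not mark strand, and 12 PCR cycles. Bowtie 1.1.2, HTSeq 0.12.4 and edgeR are listed, with no roles, per the submitters' processing notes, and the genome build was not given in the sources used here. As deposited, the values are a scaled signal: columns sum to 889133 to 1097908, so the authors' library sizes carry a scaling factor. All values were whole multiples of a fixed step in each column within 0.01 reads, which gave back whole reads. In 3 columns the smallest value above 0 was 2 reads. Gene names and positions came from the WBcel235 annotation, to which 12731 gene IDs matched and 163 did not.

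A filter of 1 CPM or more in 3 or more libraries removed 64 genes. limma 3.58.1 (R 4.3.3) was fitted to log2(CPM + 1) over all 12 libraries with a trended prior, which share 1 estimate of the spread. Two-sided p-values were adjusted by Benjamini-Hochberg over all tested genes within a comparison, at a threshold of 0.05. The test had been planned for CPM and was kept for the scaled signal. edgeR 4.0.16 and DESeq2 1.42.0 on the recovered reads were alternatives. The smallest exact permutation p for groups of 3 is 0.1, so that test was not used. Scripts were tested on simulated data.

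Labels do not say what a letter shares. Deviations of same-lettered libraries from their group means correlated at 0.821, 0.596 and 0.593 (A, B and C) between the starved groups and at 0.695, 0.55 and 0.541 between the control groups, so the letters pair the libraries in both comparisons of RNAi label, from the data and not the design. Across arrest lengths, letters A and C also tracked each other, but letter B did not. For control EV with starved EV the coefficients were 0.645 (A), 0.0848 (B) and 0.659 (C). For the control and starved groups labelled *daf-2* RNAi they were 0.487 (A), -0.0952 (B) and 0.579 (C). Since letter B showed no such link, pairing was not used across arrest lengths, although A and C would have allowed it. Labels also do not say what the 3 libraries of a group share, so p-values measure the spread between these pools.

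Members and lists were chosen with earlier results of these data known. Genes named are the shape collagens, *col-19*, *col-7* and *col-99*, the 10 largest rises and falls among called collagens in the first 2 comparisons, the 5 largest each way in the others, and the 10 highest levels per kilobase. *col-43* in starved EV, *col-95*, *col-118*, *col-10*, *col-144*, *col-96*, *col-17* and *col-73* were named after their values had been seen.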

Additional observations from a re-analysis of the deposited data

How the results depend on the processing

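No named change reversed under any alternative run. Of 46 named changes called, DESeq2 lost 1, edgeR 2, a pseudocount of 0.1 CPM 3, a pseudocount of 5 CPM 7, quantile normalization 7, and a filter at a mean of 5 CPM 4 of the 35 left, while no filter and the replicate block lost none. Without each library in turn 24 of 46 held. Quantile normalization moved the median of all genes in starved EV against control EV from 0.03 to -0.07 and that of the collagens from 0.59 to 0.29.

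The filter at a mean of 5 CPM left 18 collagens called in starved EV against control EV (13 higher) and 15 in starved labelled *daf-2* RNAi against starved EV. Of the 8835 genes it left, 1335 and 1329 were called. The replicate block is borne out by letters A, B and C alike only for the RNAi label. With it the count was 39 in starved labelled *daf-2* RNAi against starved EV (6151 of all tested genes) and 3 in control labelled *daf-2* RNAi against control EV (745). It was 39 between the labelled groups (481), 54 in starved labelled *daf-2* RNAi against control EV (2236) and 3 for the interaction (63). In starved EV against control EV 37 collagens were higher and 14 lower, where 6371 of all 12830 tested genes were called either way. edgeR with the block, chosen after seeing the data, gave 38, 3, 44, 56 and 1 in that order. In starved EV against control EV it gave 42 higher and 12 lower. It called 6008, 770, 589, 2255, 4 and, either way, 6243 of all tested genes. DESeq2 gave 2 between the control groups (383 of all tested genes), 36 between the labelled groups (372) and 1 for the interaction (4). Between the labelled groups the count was 12 and 2 with pseudocounts of 0.1 and 5 CPM, 2 with the filter at 5 CPM, 3 with quantile normalization and 13 with edgeR. Over all genes tested in each, these runs called 114, 29, 16, 54 and 117. The cause of these moves was not tested.

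Without each library in turn the counts ranged from 22 to 37 in starved EV against control EV (19 to 31 higher, 1 to 11 lower), from 7 to 24 in starved labelled *daf-2* RNAi against starved EV (0 to 0 higher, 7 to 24 lower), from 3 to 17 between the labelled groups, from 11 to 47 in starved labelled *daf-2* RNAi against control EV, and 0 between the control groups and for the interaction. Over all tested genes the counts ranged, in the same order, from 728 to 2623, from 747 to 2147, from 28 to 195 and from 389 to 901. They ranged from 60 to 180 between the control groups and from 0 to 1 for the interaction. The alternative on near-identical proteins was not run.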
